A study of Mus musculus with 25 samples.

Results

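The circadian clock genes were followed in perigonadal white adipose tissue (pgWAT) of refed male mice lacking 1 or both isoforms of the carbohydrate-responsive transcription factor ChREBP, which is encoded by Mlxipl. The set holds 10 genes, Arntl, Per1, Per2, Per3, Cry1, Nr1d1, Nr1d2, Dbp, Tef and Bhlhe40, taken by the gene name of each probe, and they are read by 23 of the 56605 gene probes of the Agilent array. All 23 probes are among the 40561 probes, of 26420 gene names, in the normalised table of the series. Levels are log2 of quantile-normalised intensity, on which 1 unit is a 2-fold change, and each gene is given by its brightest probe. Intensities of different probes are not comparable, so only levels of the same gene are set against each other.

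Every mouse had been fasted for 24 h and then refed for 18 h with food and water holding 20% glucose. The ChREBPβ line (C57BL6/J) carries a CRISPR/Cas9 deletion of the ChREBPβ-specific exon of Mlxipl in all tissues and gave 7 arrays of wild types (ChREBPβ WT) and 6 arrays of ChREBPβ KO mice. The total ChREBP line (C57BL6/J as well) is Mlxipl-null, again in all tissues, and gave 7 arrays of wild types (total ChREBP WT) and 5 arrays of total ChREBP KO mice. The labels give neither the age of the mice nor the clock time of sampling, and they number the replicates without naming animals, so the p values measure the spread between these samples. The arrays were washed in 4 batches, each of which holds all 4 groups.

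The mammalian clock is a loop of transcription factors that is found in most cells, adipocytes included. Arntl (BMAL1) with Clock activates genes through E-box elements. Among these genes are the Per and Cry repressors, which close the loop by blocking their own activators. Nr1d1 and Nr1d2 (REV-ERBα and REV-ERBβ) repress Arntl through elements that are shared with the ROR activators. Dbp and Tef are PAR bZIP factors that act on D-box elements, and Bhlhe40 (DEC1) is a further E-box repressor. Transcripts of Arntl and of the E-box targets Dbp, Tef and Nr1d1 are known to peak at opposite times of day.

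The arrays were of like quality. Correlations between any 2 arrays ran from 0.952 to 0.997, 73.0% to 77.9% of the probes stood well above background, and no gene probe was saturated. All 8 adipocyte markers were measured, and their summed normalised intensity ran from 1080690 to 1369970 in ChREBPβ WT, from 1151520 to 1336610 in ChREBPβ KO, from 1148070 to 1272910 in total ChREBP WT and, above the WT range, from 1365220 to 1401820 in total ChREBP KO. Transcripts of liver plasma proteins moved with the groups. The sum over 7 of 7 liver markers ran from 131629 to 1152250 in ChREBPβ WT, from 47089 to 885679 in ChREBPβ KO, from 4931 to 179391 in total ChREBP WT and from 5028 to 7265 in total ChREBP KO. In 1 total ChREBP WT array the 3 measured epididymis markers summed to 54075, against 489 to 756 in the other 3 groups. Mlxipl, read by a probe that does not separate the isoforms, was at 15.07 ± 0.27 (SD, n = 7) in ChREBPβ WT, 14.34 ± 0.31 (n = 6) in ChREBPβ KO, 15.98 ± 0.16 (n = 7) in total ChREBP WT and 14.21 ± 0.08 (n = 5) in total ChREBP KO. Where this probe lies relative to the deleted parts of the gene was not determined, so its level is no check of the labels.

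In total ChREBP KO mice, Bhlhe40 fell and Per2 rose compared with the wild types of that line, and the other 8 clock genes did not pass the test. The 2 called genes are 1 higher and 1 lower of 10, in a comparison in which 9.25% of the 26420 genes were called, 5.62% higher and 3.63% lower. At an unadjusted p under 0.05 there were 4 clock genes of 10, with a background of 21%. The median difference of the 10 genes was 0.33 log2 units, beside 0.02 over all genes. In bulk tissue, fewer cells of a type and less RNA per cell cannot be told apart.

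Bhlhe40, the E-box repressor, is read by 1 probe at chr6:108616309-108616368 (mm9, plus strand). It was at 12.41 at the lowest, 12.61 at the median and 12.91 at the highest in total ChREBP WT. The 5 total ChREBP KO arrays read 10.99, 11.15, 10.90, 10.68 and 10.82. No KO array reached the lowest WT array of its line, nor the ChREBPβ WT range of 11.18 to 12.27. The fitted difference was -1.76 ± 0.21 (SE), a fall of 3.38-fold with a limma adjusted p of 3.9e-06. Each of the 4 wash batches on its own gave a value between -1.92 and -1.51.

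Per2, a core repressor of the loop, ran from 9.94 over a median of 10.18 to 10.39 in total ChREBP WT. The total ChREBP KO arrays read 11.38, 10.97, 11.29, 10.93 and 11.18, so that the groups were again apart. The difference was 0.97 ± 0.17, or 1.95-fold, with a limma adjusted p of 5.3e-04, and it lay between 0.90 and 1.12 within the wash batches. The probe lies at chr1:93312595-93312654 (mm9, minus strand). A second Per2 probe, at chr1:93336538-93336597 with a mean level of 5.33, followed the bright one poorly (r = 0.25 over 25 arrays), and the mean over both probes gave 0.54 with an adjusted p of 0.0016. Among the KO arrays of both lines, the ChREBPβ KO range of Per2 (10.26 to 11.09) overlapped the total ChREBP KO range.

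Per3, the remaining Per gene, ran from 9.37 over 9.56 to 9.81 in total ChREBP WT and read 10.32, 10.69, 10.13, 10.54 and 9.94 in total ChREBP KO. The groups did not overlap on this brightest probe, as was true of 7.48% of all genes. The difference of 0.66 ± 0.24 missed the threshold (adjusted p = 0.11) in the fit over 4 groups. Fitted on the 12 arrays of the total ChREBP line alone, it was 0.72 ± 0.13 with an adjusted p of 0.0066 (8.63% of genes called), and with arrays weighted by quality it was 0.79 (adjusted p = 0.019).

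Per1, which is an immediate target of glucocorticoids as well as of the clock, was at 12.96 ± 0.36 (SD, n = 7) in total ChREBP WT and 13.28 ± 0.08 (n = 5) in total ChREBP KO. The 2 groups overlapped, and the difference of 0.37 had an adjusted p of 0.24. The D-box factors Dbp and Tef differed by 0.31 (95% confidence interval -0.76 to 1.38) and 0.34 (-0.19 to 0.87). For Nr1d2 the difference was 0.35 (-0.18 to 0.89), and for Nr1d1 it was 0.08 (-0.35 to 0.51). Arntl differed by -0.19 (-0.84 to 0.46) and Cry1, a core repressor, by -0.12 (-0.41 to 0.17). None of these 7 genes passed the test. These intervals use the spread within all groups, including the wide spread of Dbp in ChREBPβ WT (SD 1.59). The total ChREBP line fitted alone with limma gave 0.45 ± 0.17 (SE) for Dbp (adjusted p = 0.15). It gave 0.40 ± 0.13 for Tef (adjusted p = 0.11) and 0.42 ± 0.12 for Nr1d2 (adjusted p = 0.062). None of the 7 genes passed in that fit either. The liver marker sum was lower in KO, with 1 of 7 markers called (Fgb), and with the liver marker mean of each array as a further term Per2 and Bhlhe40 had differences of 1.09 (adjusted p = 9.6e-04) and -1.66 (adjusted p = 1.1e-04). The adipocyte marker sum was higher in KO without overlap, with 2 of 8 markers called, Plin1 (0.43) and Cidec (0.39), and its part in the clock gene differences was not tested.

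**Figure D1:**
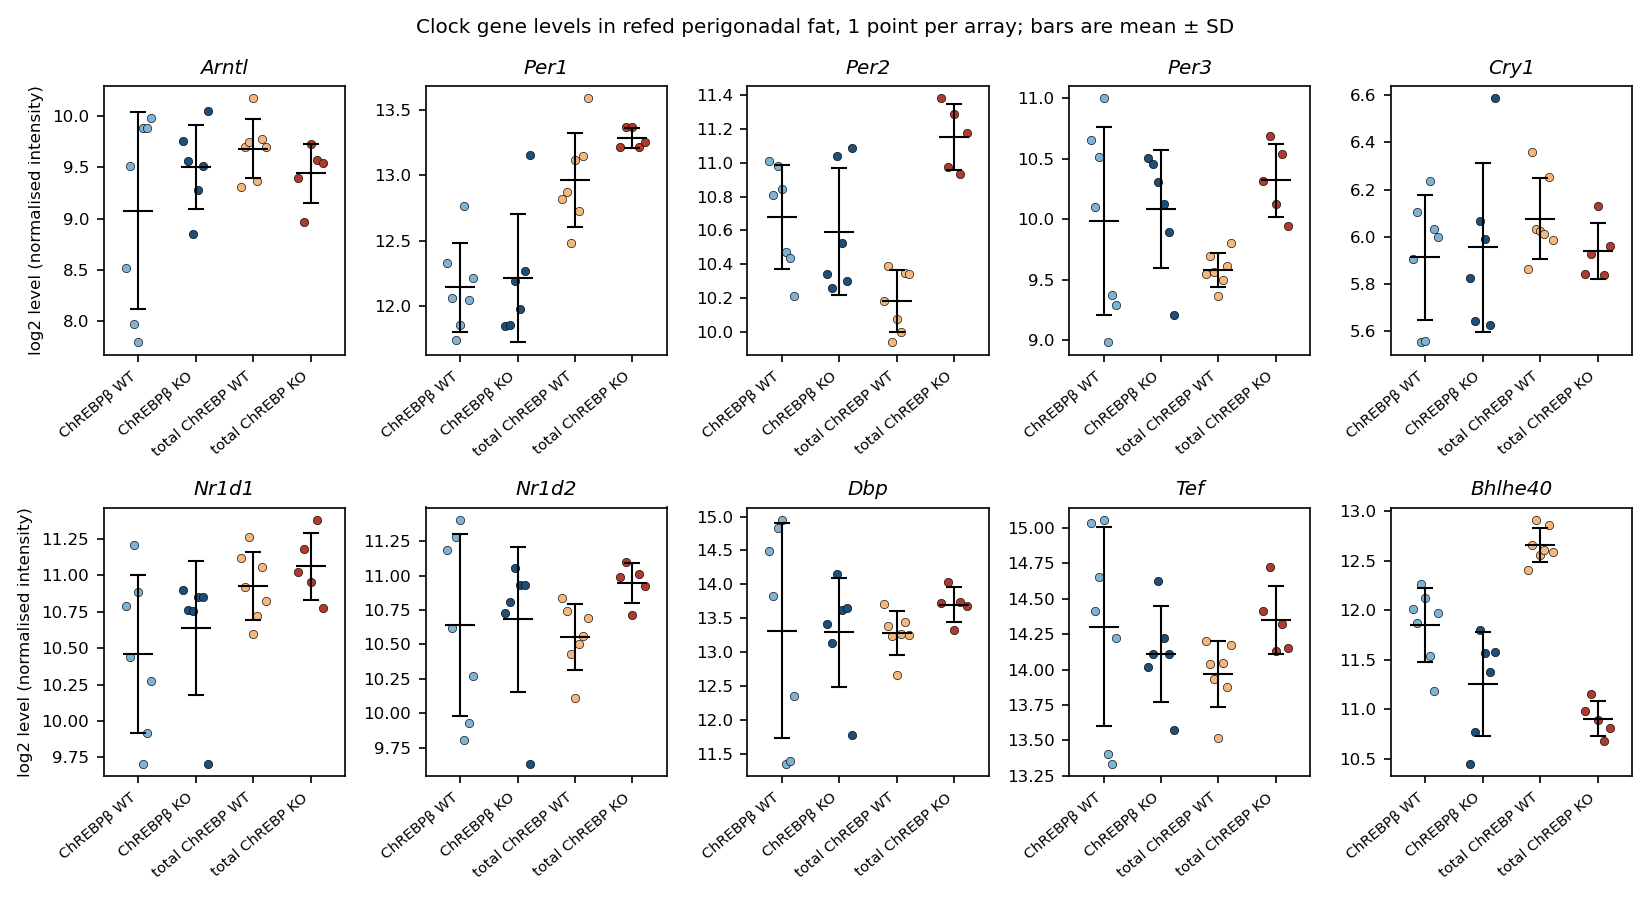
Log2 levels of the 10 clock genes on 25 arrays, by group, with each panel on its own scale. Points are arrays and bars are mean ± SD. Per2, Per3 and Bhlhe40 separate total ChREBP KO from total ChREBP WT, and Dbp and Arntl spread most widely in ChREBPβ WT.

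In ChREBPβ KO mice no clock gene was called against WT littermates, in a comparison in which 0 of 26420 genes passed (0%). At an unadjusted p under 0.05, 9.45% of genes and 1 clock gene, Bhlhe40, passed. Bhlhe40 ran from 11.18 over 11.98 to 12.27 in ChREBPβ WT and from 10.45 over 11.47 to 11.80 in ChREBPβ KO. The groups overlapped, and the difference was -0.60 ± 0.20 (adjusted p = 0.39). Taken batch by batch, from wash batch 1 to 4, the values were -1.07, -1.10, -0.04 and -0.28.

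Per2 overlapped between the ChREBPβ groups too, with 10.21 to 11.01 in WT and 10.26 to 11.09 in KO, and the difference was -0.09 with a 95% confidence interval from -0.42 to 0.25. The widest interval was that of Dbp, -1.04 to 0.98 around a difference of -0.03, followed by Arntl with -0.20 to 1.04 around 0.42. For Cry1 (0.05) and Per1 (0.06) the intervals were -0.23 to 0.33 and -0.28 to 0.41. A difference of about 1 log2 unit in either direction in Dbp, or a rise of that size in Arntl, lay within or at the edge of these intervals. Such differences in the ChREBPβ line are therefore not excluded by these arrays.

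Whether the effect of the knockout differed between the lines was tested for each gene as the total ChREBP difference minus the ChREBPβ difference. Per2 and Bhlhe40 passed, 1 higher and 1 lower, with a background of 3.47% of genes (1.35% higher, 2.13% lower). For Per2 the difference of effects was 1.05 ± 0.23 (adjusted p = 0.010), and for Bhlhe40 it was -1.16 ± 0.28 (adjusted p = 0.023). Within the wash batches these values were 0.77 to 1.45 for Per2 and -1.88 to -0.67 for Bhlhe40. Bhlhe40 missed the threshold when total ChREBP KO replicate 4 was left out (-1.08, adjusted p = 0.054) or ChREBPβ KO replicate 5 (-1.07, adjusted p = 0.053). The next largest values, for Arntl (-0.61 ± 0.43), Per3 (0.57 ± 0.34) and Tef (0.54 ± 0.35), did not pass.

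**Figure D2:**
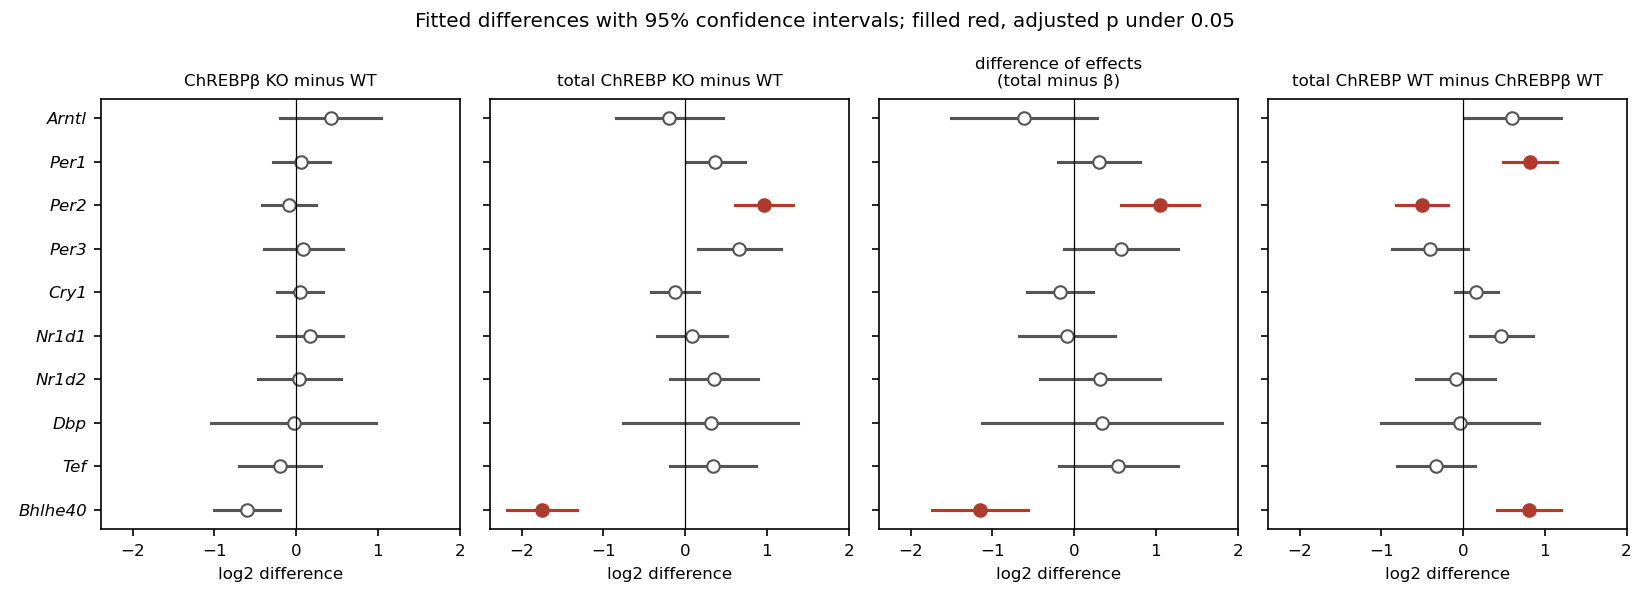
Fitted log2 differences of the 10 clock genes (horizontal axes) with 95% confidence intervals in 4 comparisons; filled red points have an adjusted p under 0.05. Bhlhe40 and Per2 are called for total ChREBP KO and for the difference of effects, no gene for ChREBPβ KO, and Per1, Per2 and Bhlhe40 between the wild types.

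The wild types of the 2 lines also differed in 3 of the 10 genes, 2 higher and 1 lower in total ChREBP WT, in a comparison that called 22% of all genes (13.5% higher, 8.51% lower). The differences of this comparison and of the knockout comparisons share the WT arrays. Bhlhe40 was higher by 0.80 ± 0.19 (adjusted p = 0.0039), and the ranges of 12.41 to 12.91 in total ChREBP WT and 11.18 to 12.27 in ChREBPβ WT did not overlap, as for 5.38% of genes. Bhlhe40 therefore had the order total ChREBP WT, ChREBPβ WT, ChREBPβ KO and total ChREBP KO from high to low, with overlap between the second and the third and between the third and the last.

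Per1 was higher in total ChREBP WT by 0.82 ± 0.16 (adjusted p = 9.4e-04). It ran from 12.48 over 12.87 to 13.59 there and from 11.74 over 12.06 to 12.77 in ChREBPβ WT, and the difference was 0.71 to 1.00 in the 4 wash batches. Per1 was also low in ChREBPβ KO, at 11.84 to 12.26 on 5 of the 6 arrays and 13.16 on the sixth, and at 13.21 to 13.37 in total ChREBP KO.

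Per2 was lower in total ChREBP WT, with a difference of -0.50 ± 0.15 (adjusted p = 0.023), and its within-batch values ran from -0.90 to -0.08. This call was lost when any 1 of ChREBPβ WT replicates 1 and 3 or total ChREBP WT replicate 4 was left out (-0.44, -0.44 and -0.45), and with the mean over both probes (-0.25, adjusted p = 0.062). All 7 liver markers were called lower in total ChREBP WT, with a median difference of -4.76. With the liver marker mean as a further term no clock gene was called between the wild types, with differences of 0.73 (adjusted p = 0.11) for Per1, -0.25 (0.61) for Per2 and 0.997 (0.059) for Bhlhe40.

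Several clock genes spread widely between the arrays of the ChREBPβ line. Dbp, which had the largest SD of the 10 in this group, read 14.50, 13.83, 14.83, 14.95, 11.36, 11.40 and 12.35 on the 7 ChREBPβ WT arrays. Its SD of 1.59 exceeded that of 99.5% of all probes in the group, whose median SD was 0.19. Arntl, the activator, read 8.52, 9.51, 7.97, 7.79, 9.88, 9.89 and 9.99 on the same arrays in the same order, with an SD of 0.96 that exceeded that of 97.1% of probes. The 3 arrays with the lowest Dbp were the 3 with the highest Arntl.

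The same 3 ChREBPβ WT arrays had the lowest Per3 (8.98, 9.38 and 9.29, while replicates 1 and 3, for example, read 10.66 and 10.52), the lowest Nr1d2 (9.80, 9.93 and 10.27, against 10.62 to 11.41) and the lowest Tef (13.41, 13.33 and 14.23, against 14.42 to 15.06). The arrays of high Dbp were not all of 1 wash batch: in batch 3 the 2 ChREBPβ WT arrays read 14.50 and 11.40. The 2 arrays of batch 1 were both high and the 2 of batch 4 both low, so within this group batch and split cannot be told apart there. In batch 4, ChREBPβ KO arrays read 13.65 and 11.79, and arrays of the total ChREBP line 13.26 to 13.73. In batch 1 these were 13.41 and 14.15, and 12.67 to 14.04. After group and wash batch were taken out, Dbp residuals of ChREBPβ WT were 1.00 and 1.13 in batch 1. They were -1.46 and -0.46 in batch 4. The part of batch in this split was not tested. The liver marker mean of the 7 ChREBPβ WT arrays was 13.30, 15.42, 16.84, 16.27, 16.13, 16.50 and 14.31 in the order above. The 3 ChREBPβ WT arrays of low Dbp thus lay inside the range of the other 4.

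In ChREBPβ KO, replicate 8 stood apart in the same sense. Dbp was 11.79 on this array and 13.13 to 14.15 on the other 5, while Arntl was 10.05 against 8.85 to 9.76. In total ChREBP WT the SDs of Dbp and Arntl were 0.32 and 0.29, and in total ChREBP KO 0.26 and 0.29. Tef, Nr1d2 and Per3 likewise had SDs of 0.71, 0.66 and 0.78 in ChREBPβ WT and of 0.24, 0.15 and 0.30 in total ChREBP KO. Bhlhe40 and Per2, the genes called in the total ChREBP line, had SDs of 0.37 and 0.31 in ChREBPβ WT and of 0.17 and 0.18 in total ChREBP WT.

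**Figure D3:**
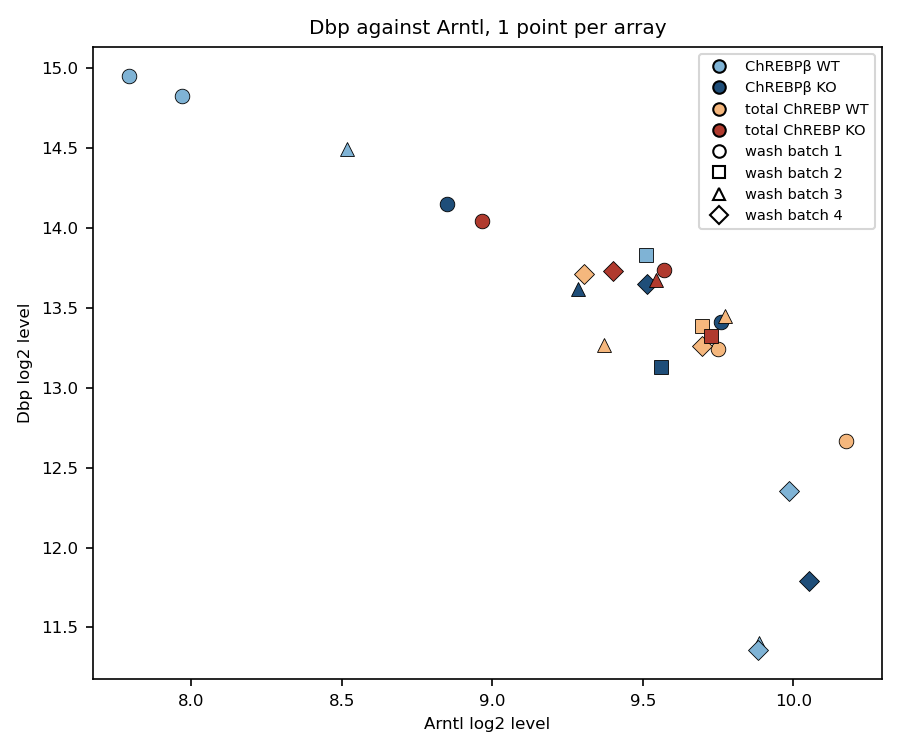
Dbp (vertical axis, log2 level) against Arntl (horizontal axis, log2 level) on 25 arrays, coloured by group, with the symbol giving the wash batch. The ChREBPβ WT arrays lie at both ends, from Dbp 14.95 at Arntl 7.79 to Dbp 11.36 at Arntl 9.88, and the Dbp levels of the total ChREBP line lie between them, with Arntl reaching 10.18 on 1 total ChREBP WT array.

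What remained after group and wash batch were taken out is described by correlations over the 25 arrays, which share the quantile normalisation and the fitted terms. Arntl ran against Dbp (r = -0.87), Nr1d2 (-0.86), Tef (-0.84), Per3 (-0.80) and Nr1d1 (-0.66). These 5 genes ran together, with 0.95 for Dbp and Nr1d2, 0.93 for Dbp and Tef and 0.89 for Nr1d1 and Nr1d2. Without the ChREBPβ WT arrays, refitted on the other 18, Arntl had -0.81 with Dbp, -0.76 with Nr1d2, -0.96 with Tef, -0.58 with Per3 and -0.50 with Nr1d1.

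Per1, Per2, Cry1 and Bhlhe40 were less tied to Dbp and did not share 1 pattern. Cry1 ran with Arntl (0.51 over 25 arrays) and against Nr1d1 (-0.72), Nr1d2 (-0.70) and Per3 (-0.64), and Per1 ran against Nr1d1 (-0.61). Cry1 also ran with Per1 (0.70 over 25 arrays, 0.72 over 18) and with Per2 in the 18 arrays (0.81) but less over all 25 (0.32). Bhlhe40 ran with Per2 (0.57 over 25 and 0.56 over 18). Over 25 arrays it ran with Tef (0.52) and Dbp (0.48) and against Arntl (-0.49), and over 18 these were 0.21, 0.04 and -0.29. The correlation of Per2 with Dbp was 0.41 over 25 arrays and -0.15 over 18. The mean of the liver markers had residual correlations between -0.26 (Arntl) and 0.28 (Per2) with the 10 genes.

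Within single groups Arntl was set against the other 9 genes in ChREBPβ KO (n = 6) and total ChREBP WT (n = 7), 18 relations in all. The ChREBPβ WT arrays fall into separate sets on Arntl and on Dbp and were not tested, and total ChREBP KO has 5 arrays. The 2 splits are not the same, as replicate 2 lay in the upper set on both Arntl (9.51) and Dbp (13.83). For Tef, Pearson's r was -0.98 in ChREBPβ KO (exact permutation p = 0.0042, adjusted 0.075) and -0.86 in total ChREBP WT (exact p = 0.0097, adjusted 0.088). Spearman's rho for Tef was -1 and -0.96 (exact p = 0.0028 for both, adjusted 0.025). Without the 2 arrays farthest from the median of Arntl, r for Tef was -0.996 in ChREBPβ KO and -0.35 in total ChREBP WT, where the relation rests on those arrays.

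For Dbp, r with Arntl was -0.86 in ChREBPβ KO (exact permutation p = 0.032, adjusted 0.18; rho -0.89) and -0.81 in total ChREBP WT (exact p = 0.041, adjusted 0.18; rho -0.54), and it became -0.45 and 0.40 without those 2 arrays. For Nr1d2 it was -0.79 (exact p = 0.072, adjusted 0.22; rho -0.99, adjusted 0.033) and -0.75 (exact p = 0.052, adjusted 0.19; rho -0.68), and became -0.87 and 0.21. No Pearson correlation passed after adjustment. In total ChREBP WT Arntl also ran against the liver marker mean (r = -0.80, exact permutation p = 0.029, adjusted 0.12 over 4 relations chosen after seeing the data), and the part of the liver transcripts in these relations was not tested.

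**Figure D4:**
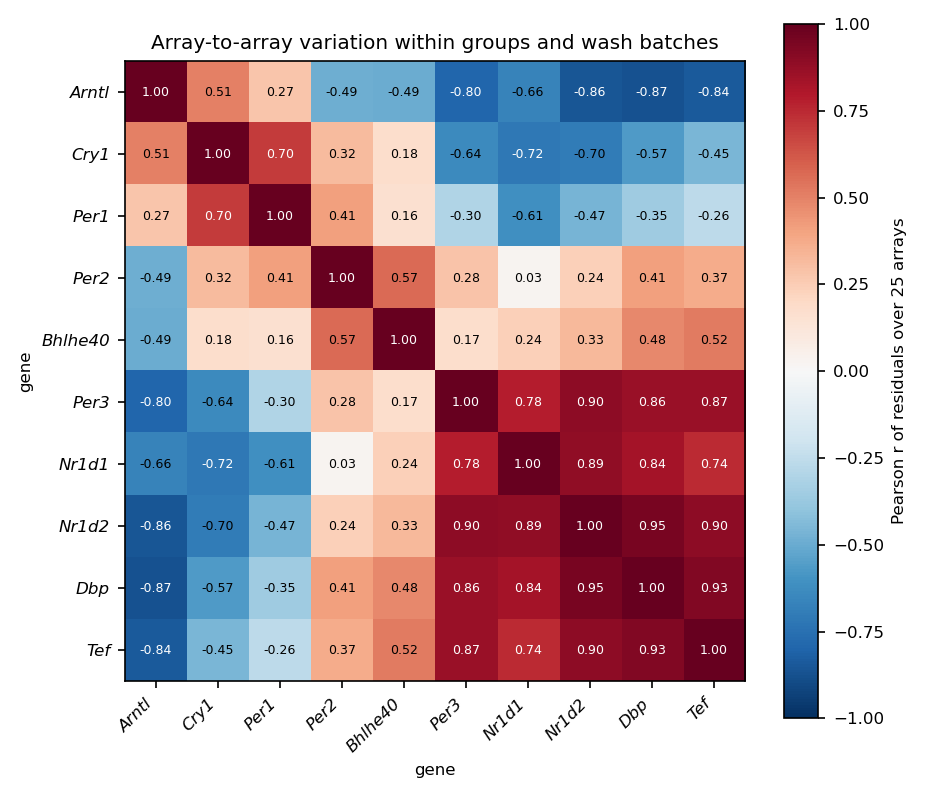
Pearson correlations between the 10 clock genes over 25 arrays after group and wash batch were taken out (both axes, genes; colour and number, r). Dbp, Nr1d2, Tef, Per3 and Nr1d1 form a block of positive values from 0.74 to 0.95 that is negative to Arntl (-0.66 to -0.87).

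The start regions of these genes are shown for the elements named above. Whether the elements have a part in the correlations was not tested. RefSeq promoters (build GRCm38.p6, 250 bases before to 50 after the start) were found for 8 of the 10 genes, 11 promoters in all; Per2 and Bhlhe40 have no entry. The ROR/REV-ERB element was searched on both strands in 1 strict form, AGGTNA preceded directly by AAAGT, held by 0.0609% of 32851 promoters. Looser forms were not searched, so this is not the share of the element at large. Arntl has this form at 2 places, which start at positions -10 and 27 from 1 of its start sites. The letters searched equal those of these 2 places, with N where they differ, so the match in Arntl was fixed beforehand and is no result. Capitals mark the element in the stretches at chr7:113207492-113207520 and chr7:113207528-113207556 (plus strand).
Arntl, first element: attggtcggAAAGTAGGTTAgtggtgcga
Arntl, second element: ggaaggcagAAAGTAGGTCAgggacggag

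The D-box, the element of Dbp and Tef, was searched as TTATGTAA on both strands and is held by 0.938% of promoters. Of the 8 genes only Per3, which ran with Dbp and Tef (0.86 and 0.87), has it, at positions -205 and -158. Nr1d2 and Nr1d1 ran with Dbp too (0.95 and 0.84) and have no match. The stretch lies at chr4:151044796-151044890 on the minus strand, with the D-boxes in capitals.
Per3: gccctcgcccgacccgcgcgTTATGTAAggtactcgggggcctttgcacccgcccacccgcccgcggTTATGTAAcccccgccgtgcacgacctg

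The E-box, searched as CACGTG (its own reverse complement), is held by 7.15% of promoters and by those of Per1, Cry1 and Tef among the 8 genes. It starts at position -166 in Per1 (chr11:69098763-69098808, plus strand) and at -60 in Cry1 (chr10:85185089-85185134, minus strand). Tef has it at -127 in 1 promoter (chr15:81802526-81802571, plus strand) and at -138 in another, which is not printed. Capitals again mark the element.
Per1: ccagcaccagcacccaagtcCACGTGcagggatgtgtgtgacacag
Cry1: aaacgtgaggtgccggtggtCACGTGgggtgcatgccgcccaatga
Tef: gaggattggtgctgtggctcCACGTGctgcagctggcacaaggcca
Tef ran against Arntl while Per1 and Cry1 did not (0.27 and 0.51), so genes with the same letters in this window differed in how they varied. A match is only a match of letters, and the absence of one from this window says nothing of elements elsewhere.

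Other probes of the genes gave the same array-to-array pattern where they were bright. Against the brightest probe, residual correlations over 25 arrays were 0.83 to 0.93 for Arntl, 0.83 and 0.88 for Per3, 0.95 and 0.97 for Nr1d2, 0.996 for Dbp and 0.86 to 0.97 for Tef. The second probes of Per1 (mean level 4.97, r = -0.07), Per2 (0.25) and Cry1 (mean level 5.85, r = 0.43) did not follow. Cry1 was dim on both of its probes, and Nr1d1 and Bhlhe40 have 1 probe each.

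Of 27 further clock pathway genes 25 were measured, and in the total ChREBP line 5 of them were called, 3 higher and 2 lower, beside 9.25% of all genes (5.62% higher, 3.63% lower), with a median difference of 0.09 beside 0.02 for all genes. Rora (RORα), an activator of Arntl, rose by 0.49 ± 0.07 (adjusted p = 1.2e-04), with 12.08 to 12.50 in WT and 12.64 to 12.87 in KO, so that the groups did not overlap.

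Usp2, which encodes a deubiquitinase with a strong daily rhythm, rose by 0.66 ± 0.16 (adjusted p = 0.0087), from 9.54 to 10.42 in WT to 10.47 to 10.66 in KO. Klf15, a clock output factor in nutrient metabolism, rose by 0.56 ± 0.10 (adjusted p = 9.9e-04), and its groups did not overlap. Bhlhe41 (DEC2), the paralogue of Bhlhe40, fell by 0.65 on the log2 scale (difference -0.65 ± 0.17, adjusted p = 0.015), and its groups overlapped; the call was lost when total ChREBP KO replicate 7 was left out. Prkaa2, a catalytic subunit of AMPK, which can mark CRY proteins for breakdown, fell by 0.57 (difference -0.57 ± 0.13, adjusted p = 0.0058). With the liver marker mean as a further term, Bhlhe41 and Prkaa2 were no longer called, while Rora, Usp2 and Klf15 were. Fbxl21, another gene of the list, was called only with that term added to the main fit. The partner of Arntl, Clock, differed by 0.01 ± 0.09, and Cry2 by 0.22 ± 0.08 (adjusted p = 0.098). Hlf, the third PAR bZIP factor, differed by 0.56 ± 0.28 (adjusted p = 0.26), or by 0.64 with an adjusted p of 0.016 in the fit on the total ChREBP line alone.

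In the ChREBPβ line none of the 25 genes was called; Prkaa2 differed by -0.29 ± 0.12 (adjusted p = 0.48). The effect differed between the lines for Rora (0.53 ± 0.10, adjusted p = 0.0035), Usp2 (0.84 ± 0.21, adjusted p = 0.031) and Klf15 (0.67 ± 0.14, adjusted p = 0.0077), beside 3.47% of all genes. Usp2 missed the threshold in this test when any 1 of ChREBPβ WT replicate 1, ChREBPβ KO replicates 2, 3, 5 and 6, total ChREBP WT replicates 4, 5 and 6 or total ChREBP KO replicates 1, 2, 4 and 7 was left out. Between the wild types 4 of the 25 were called, all higher in total ChREBP WT, beside 22% of all genes. These were Ppargc1a (1.13 ± 0.15), a coactivator of the ROR factors, Klf9 (0.36), Ppp1ca (0.30) and Prkaa2 (0.38). With the liver term Klf9 and Prkaa2 were no longer called, and Prkaa2 was also lost when any 1 of ChREBPβ WT replicates 1, 6 and 7 or total ChREBP WT replicate 8 was left out.

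**Figure D5:**
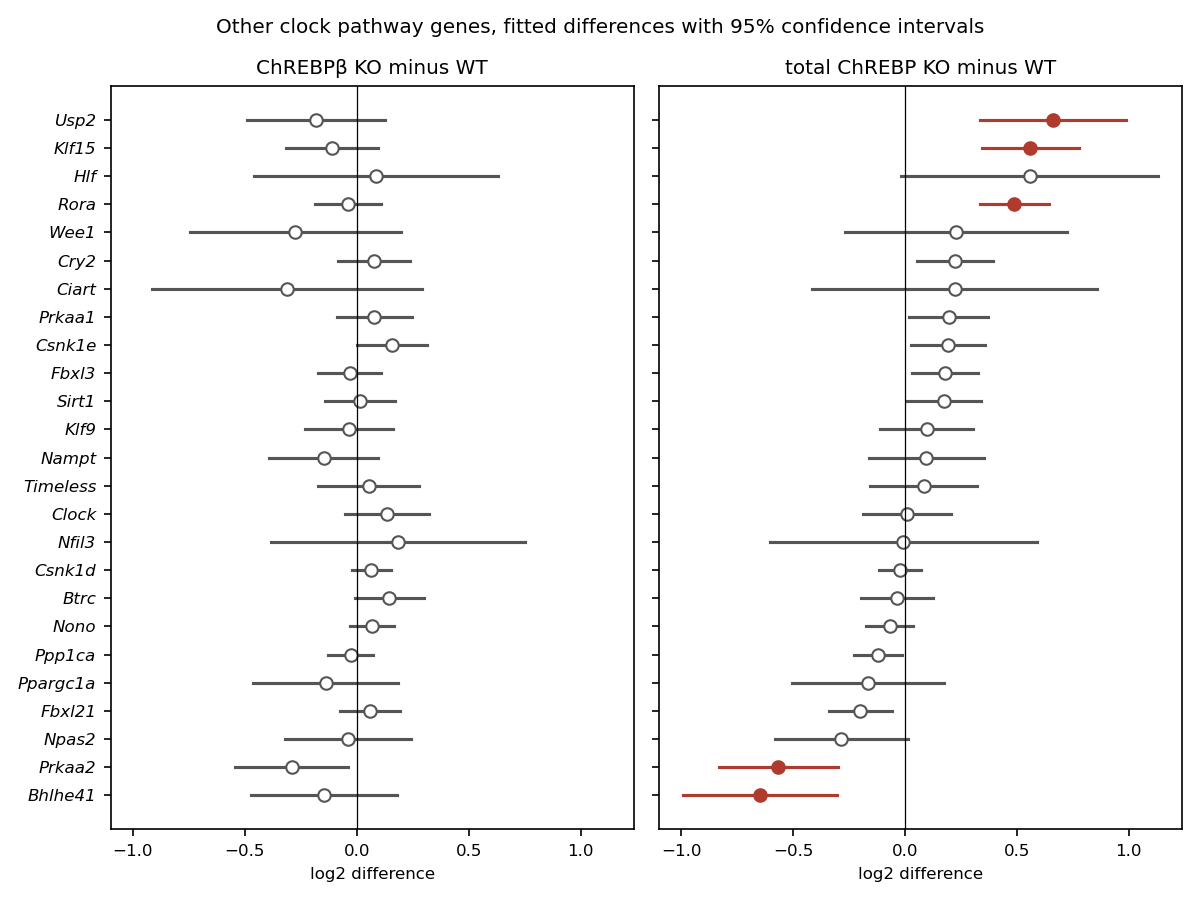
Fitted log2 differences (horizontal axes) of the 25 other clock pathway genes with 95% confidence intervals in the ChREBPβ line and the total ChREBP line, ordered by the latter; filled red points have an adjusted p under 0.05. Rora, Usp2 and Klf15 are higher and Bhlhe41 and Prkaa2 lower in total ChREBP KO, and no gene is called in ChREBPβ KO.

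For scale, 6 genes of a list of 8 ChREBP targets, which holds Mlxipl itself, were called lower in total ChREBP KO, beside 3.63% of all genes. Acaca, an enzyme of fatty acid synthesis, differed by -1.86, and Elovl6, a fatty acid elongase, by -3.37. Fasn read the same highest value, 18.79, on all 7 total ChREBP WT arrays, so the size of its difference is not given.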

How the data were processed

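Total RNA of pgWAT was labelled with Cy3 and hybridised to 1-colour Agilent arrays, 1 sample an array. Per the labels, images were read with Feature Extraction 10.10.1.1 and limma was used; the authors took median pixel intensity, weighted spots by their flags, filtered them, quantile-normalised and took the median over replicated probes. The deposited series table holds these log2 values (40561 probes; medians 7.96 on all arrays), and the deposited scanner files hold linear intensity. Array medians of raw intensity were 84 to 127 over backgrounds of 15 to 22, and the number of arrays limits the precision.

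Groups were taken from the sample titles. The log2 values were fitted with limma 3.58.1 (R 4.3.3) on all 25 arrays, with group and wash batch as terms (18 residual degrees of freedom), and p values were adjusted by Benjamini-Hochberg over all probes; called means an adjusted p under 0.05. A gene was represented by its probe of highest mean level. Correlations within groups used two-sided exact permutation tests (scipy 1.17.1). Correlations within ChREBPβ WT had been planned and were left out after its arrays were seen to fall into separate sets on Arntl and on Dbp. All 10 genes and every called gene of the clock pathway list are named; 1 listed gene is not reported here and is left out of the counts. The members and lists were chosen with earlier results of these data known. Alternatives used the scanner files (also with normexp, offset 50, or from the processed signal with each array's 75th percentile subtracted), other filters, blocks, weights and left-out arrays. Tested on simulated data for the total ChREBP comparison (40538 probes), the fit recovered 89.5% of 200 probes changed by 1 log2 unit with 6.28% false calls. For the ChREBPβ comparison these were 91% and 2.67%. These rates hold for the changed probes as a set and not for the clock genes. In ChREBPβ WT the SDs of Dbp and Arntl exceeded those of 99.5% and 97.1% of probes.

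Probe positions are those of the scanner files (mm9), which were not set against an annotation. Promoter sequences are from RefSeq (GRCm38.p6).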

Additional observations from a re-analysis of the deposited data

Results flagged for a closer look

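The array of ChREBPβ KO replicate 8 stood apart from the other 5 of its group in 3 clock genes, by a gap that was a large share of the group's range. For Per1 it read 13.16, with the nearest array at 12.26 (gap 0.679 of the range). For Nr1d1 it read 9.71 with the nearest at 10.76 (0.882), and for Nr1d2 9.63 with the nearest at 10.73 (0.769). In all, 40 sets of 1 gene in 1 group were examined, and chance flags about 1 in 20 such sets. Without this array the ChREBPβ difference of Per1 was -0.08.

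The effect of the knockout differed between the lines for Per2 (1.05, adjusted p = 0.010), Bhlhe40 (-1.16, adjusted p = 0.023), Rora (0.53, adjusted p = 0.0035), Usp2 (0.84, adjusted p = 0.031) and Klf15 (0.67, adjusted p = 0.0077), by the interaction term of the limma fit. ChREBPβ WT and total ChREBP WT differed from each other in Per2 and Bhlhe40, and their arrays enter this test.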

How the results depend on the processing

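In the total ChREBP line Bhlhe40 was called under all 12 alternatives and all 25 left-out arrays (-1.80 to -1.66), and so was Per2 (0.54 to 1.09), and 2 or 3 clock genes were called each time; no clock gene was called in the ChREBPβ line in any of them. Replicate numbers do not pair the samples: same-numbered arrays had correlations of deviations from -0.43 to 0.55. With the replicate block no clock gene differed in effect between the lines (count 0; Per2 0.88, adjusted p = 0.19; Bhlhe40 -1.07, adjusted p = 0.21), and leaving out 1 array gave counts of 1 to 2. Of the other clock genes 1 (Klf15) kept its difference of effects with the replicate block, in place of 3, and array weights gave 8 calls in the total ChREBP line in place of 5. Between the wild types, the liver marker mean as a term gave 0 clock genes and 2 other clock genes, array weights gave 9 other clock genes and the mean over probes 7, in place of 3 and 4; Per2 was no longer called there with the replicate block (-0.43, adjusted p = 0.090) or the mean over probes (-0.25, adjusted p = 0.062).

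Over all genes, the liver term gave 1564 calls in the total ChREBP line (2444 without it) and 1946 between the wild types (5824). Between the wild types this term largely follows the line. The replicate block gave 522 for the difference of effects (918), and array weights gave 3678 in the total ChREBP line, 1506 for the difference of effects and 38 in the ChREBPβ line.

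Small differences that were never called changed sign. In the ChREBPβ line the mean over probes gave -2.3e-04 for Per3 and -0.0116 for Nr1d2, and Dbp was 0.0493 with the replicate block and 0.0513 with array weights. Leaving out 1 array gave -0.0789 to 0.13 for Per1, -0.20 to 0.00905 for Per2, -0.0405 to 0.22 for Per3, -0.0768 to 0.16 for Cry1, -0.0848 to 0.22 for Nr1d2 and -0.34 to 0.19 for Dbp. In the total ChREBP line Nr1d1 was -0.00715 with the replicate block and -0.0448 to 0.15 with 1 array left out. The difference of effects of Nr1d1 was -0.23 to 0.0263. Between the wild types, left-out arrays gave -0.23 to 0.0301 for Nr1d2 and -0.40 to 0.20 for Dbp, and Dbp was 0.0561 with the liver term, 0.0235 with the processed signal and 0.11 with the replicate block. Without the 2 arrays farthest from its median, Arntl in ChREBPβ KO had r of -0.34 with Per1, 0.60 with Per3, -0.43 with Cry1 and 0.27 with Nr1d1, and in total ChREBP WT 0.49 with Per3, 0.73 with Nr1d1, 0.21 with Nr1d2 and 0.40 with Dbp. The cause of these changes was not tested.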

Other observations

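Glucocorticoid-responsive genes were examined because Per1 is one of them. Of 10 measured, 3 were called in the total ChREBP line, beside 9.25% of all genes: Zbtb16 (1.00 ± 0.28, adjusted p = 0.030) and Tsc22d3, the GILZ gene (0.52 ± 0.13, adjusted p = 0.010), were higher, and Sgk1, a kinase of ion transport, was lower (-0.58 ± 0.15, adjusted p = 0.019). Fkbp5, a co-chaperone of the receptor, differed by 0.31 ± 0.23. Between the wild types Sgk1, Cdkn1a and Dusp1 were called, all higher in total ChREBP WT, where Per1 was higher too, beside 22% of all genes. The other 7 genes of the list were not called, and only 6 of the 10 had a positive difference. No gene of this list was called in the ChREBPβ line.

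Among 26370 genes outside the clock lists, those whose variation over the 25 arrays, after group and wash batch, was most like that of Dbp were Rnaseh2b (r = 0.86), Reep1 (0.81), Gpr19 (0.80) and Fam102a (0.78). Most like Arntl were the transcripts AK038006 (0.90) and 4930486L24Rik (0.84) with Dtx4 (0.86) and Ccng2 (0.84). Most like Per1 were Syde2 (0.77), Crkl (0.76), BB166591 and AK082436 (0.75 for both). Each list of 5 also holds 1 long intergenic RNA probe.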
